A study of Macaca mulatta with 20 samples.

Results

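C1QA, C1QB and C1QC code for the A, B and C chains of complement C1q, and their mRNA was followed in blood of rhesus macaques (Macaca mulatta) before and after irradiation of the thorax. The members were found by gene name: they are 3 of the 25992 gene names on the array, and each had 1 probe with 1 spot, of 34127 probes that were not controls. The genes were chosen by their measured change: their probes held the 3 largest differences between day 2 and pre-irradiation among 19961 tested probes, and C1QA and C1QB were again among the called probes between day 30 and day 2. The values of those comparisons are therefore given as a description: no p-value is printed for the chains there, and calls are stated only as what the choice rested on.

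The C1q protein is built from the A, B and C chains, each with a collagen-like stem and a globular head, and all chains are needed for a working molecule. It is the recognition part of the first complement component. It binds antibody on targets, dying cells and pentraxins, and switches on the proteases C1r and C1s, which cleave C4 and C2. Most complement proteins are made by the liver, whereas C1q is made mainly by macrophages, dendritic cells and some monocytes.

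The 20 arrays held 5 replicates each of pre-irradiation blood and of blood drawn after a 10 Gy dose of X-rays to the whole thorax (WTLI), on day 2, on day 5 or on day 30. All arrays were of male animals of Chinese origin from the arm without a mitigating drug, with blood drawn from 8 animals in all per the labels. The control was blood taken before exposure, so time and exposure change together. In 1 case the study combined RNA of different animals, and the labels do not say on which array. The RNA was whole blood RNA depleted of globin transcripts and was hybridized to human probes. A lower or higher value in whole blood cannot tell a changed number of cells of a type from a changed amount of RNA per cell.

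The sequences of the 60-base probes of C1QB and C1QC are shown because the values below rest on them, and because near-identical probes could have moved together through shared target RNA. They are given as the array files hold them. Capitals mark a run of bases as long as any that 2 of the 3 chain probes share. Other runs of that length exist, and the C1QB probe does not hold the marked one:
C1QB: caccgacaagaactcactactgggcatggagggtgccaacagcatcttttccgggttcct
C1QC: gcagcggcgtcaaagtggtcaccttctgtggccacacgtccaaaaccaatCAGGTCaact

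The longest shared runs were of 6 bases, between C1QA and C1QC. C1QA and C1QB shared a run of 5 bases and C1QB and C1QC a run of 4. With probes of any other gene on the array, the longest shared runs were 14, 12 and 13 bases for C1QA, C1QB and C1QC. The files place these probes on human hg19 at chr1:22974089-22974148 for C1QC and chr1:22987795-22987854 for C1QB, without a strand. In the macaque gene table of RefSeq (assembly T2T-MMU8v2.0) the genes of the chains are neighbours on chromosome 1, in the order C1QB, C1QC and C1QA, with 0 genes between them. How well the human probes match the macaque transcripts was not tested.

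Signal quality differed between the chains. C1QA and C1QB were well above background on 20 of 20 arrays, by the flag of the scanner software, and no spot was saturated. C1QC was well above background on 5 of 20 arrays: 0 of 5 before irradiation, 3 of 5 at day 2, 2 of 5 at day 5 and 0 of 5 at day 30. The test required 5 such arrays, so C1QC entered it only through the days on which it was high. On 7 arrays, 5 of them pre-irradiation and 2 of day 30, the software had replaced the C1QC signal by a surrogate for a spot near background. Between 50.9% and 67.3% of all spots on an array were well above background, with the highest share on the day 5 array of replicate 3.

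Levels are log2 processed signal minus the 75th percentile of the same array, so that 0 is the signal of a fairly bright spot, and levels of different probes are not compared with each other. Before irradiation the level of C1QA, the gene of the A chain, was -3.14, -3.99, -2.34, -2.89 and -2.92 in replicates 1 to 5. At day 2 it was 0.29, -2.04, -0.20, 0.15 and 1.05. All day 2 arrays lay above all pre-irradiation arrays, and replicate 2 was the lowest in both groups.

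At day 5 the level of C1QA was -2.23, -0.84, -1.98, -1.77 and -0.38 in replicates 1 to 5. At day 30 it was -2.67, -3.44, -3.11, -1.81 and -2.10. All day 5 arrays were still above all pre-irradiation arrays, with replicates 2 and 5 the highest, whereas the day 30 arrays overlapped with those before irradiation. The group means were -3.06 ± 0.60 (SD, n = 5) before irradiation, -0.15 ± 1.15 at day 2, -1.44 ± 0.79 at day 5 and -2.63 ± 0.68 at day 30.

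C1QB is the gene of the B chain. Its level before irradiation was -0.78, -1.43, 0.53, -0.10 and -0.22 in replicates 1 to 5. At day 2 it was 2.2, 0.84, 2.06, 2.36 and 3.08. The groups did not overlap, but replicate 2 at day 2 lay only slightly above replicate 3 before irradiation.

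At day 5 the level of C1QB was 0.29, 1.75, 0.078, 0.76 and 2.08 in replicates 1 to 5. At day 30 it was -0.12, -0.88, -0.76, 0.79 and 0.42. Both groups overlapped with the pre-irradiation arrays, and replicates 2 and 5 were again the highest at day 5. The means were -0.40 ± 0.74 before irradiation, 2.11 ± 0.81 at day 2, 0.99 ± 0.88 at day 5 and -0.11 ± 0.73 at day 30 (SD, n = 5 each).

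C1QC, the gene of the C chain, had a probe near the floor of the scan. At day 2 its level was -2.25, -4.22, -4.12, -2.89 and -2.20 in replicates 1 to 5, of which replicates 1, 4 and 5 were well above background. At day 5 it was -5.28, -3.03, -4.40, -5.08 and -3.43, of which replicates 2 and 5 were well above background. The arrays that passed at day 5 were thus those on which C1QA and C1QB were highest that day. Before irradiation the recorded values lay between -6.36 and -5.37, and at day 30 between -6.26 and -4.15. All of these count as not well above background.

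**Figure D1:**
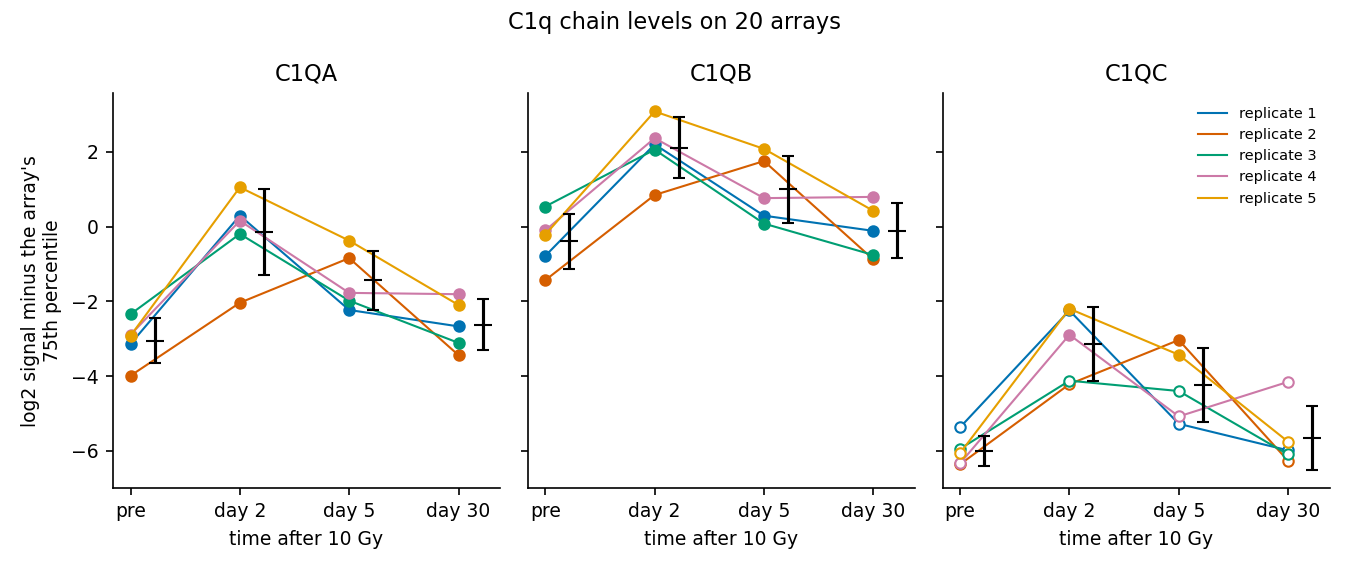
Levels of C1QA, C1QB and C1QC on 20 arrays, as log2 processed signal minus the 75th percentile of the array (vertical axis), by time point (horizontal axis). Coloured lines join the arrays of 1 replicate number, open points were not well above background, and black bars give the mean ± SD of 5 arrays. In 4 of 5 replicates C1QA and C1QB were highest at day 2, and in replicate 2 at day 5.

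C1QA and C1QB had their highest level at day 2 in 4 of 5 replicates and at day 5 in the remaining one, replicate 2. The recorded values of C1QC peaked on the same days, but in replicate 3 all of them were not well above background. By group means the order was day 2, day 5, day 30 and pre-irradiation for C1QA and C1QB. Neighbours in that order overlapped: day 2 with day 5, day 5 with day 30, and day 30 with pre-irradiation.

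C1QA was higher at day 2 than before irradiation by 2.91 on the log2 scale (SE 0.30), a 7.51-fold change. The 5 pairs of arrays with the same replicate number gave 3.43, 1.95, 2.15, 3.05 and 3.97. C1QB was higher by 2.51 (SE 0.26), or 5.69-fold, with pairs of 2.98, 2.28, 1.52, 2.47 and 3.29. Replicate 5 had the largest change of both chains.

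For C1QC the fitted difference of 2.88 depends on surrogate values and is no measure of fold, so its place among the 3 largest differences has no meaning of its own. Each pre-irradiation array was taken at the lowest signal that was well above background there, or at the probe's own value where higher. The day 2 mean of recorded values was then 1.76-fold above that before irradiation, and by the same rule 2.01-fold above that at day 30. The day 2 values of replicates 2 and 3 were themselves not well above background, so these bounds are not strict. For day 5 such a bound was below 1 and no fold is given. All 3 probes met the call rule between day 2 and pre-irradiation, an unadjusted p-value under 0.005 with a false discovery rate (FDR) under 10%. Of all probes 0.0601% met it, 15.0% had an unadjusted p-value under 0.05, 6.17% were higher in 5 of 5 pairs, and 0.536% had all day 2 arrays above all pre-irradiation arrays, as all 3 chains did. Nothing is read from these counts, because this comparison chose the genes. Without replicate 1, 4 or 5, neither C1QA nor C1QB met the rule, although their differences stayed between 2.31 and 2.87. Without replicate 3, C1QA (3.10) was lost and C1QB (2.75) was kept. With normexp background correction, which starts from the raw spot signal and adds an offset of 50, neither C1QA nor C1QB met the rule. Their differences were then 1.57 and 1.77. An added constant makes log2 differences smaller, most of all for dim spots. Before irradiation the processed signal was 18.8 to 44.5 for C1QA and 110 to 327 for C1QB. The part of the offset in the normexp values was not tested.

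The arrays were spread over 5 slides with 1 array of each group on every slide. Compared within slides, which set arrays of different replicate numbers against each other except for day 5 on 1 slide, day 2 was higher than pre-irradiation on 5 of 5 slides, by 0.31 to 5.04 for C1QA and by 0.31 to 4.51 for C1QB. Day 5 was higher on 5 of 5 slides as well, by 0.57 to 3.14 for C1QA and by 0.22 to 3.18 for C1QB. Day 30 was higher on only 2 of 5 slides for both, with differences of -0.33 to 2.18 for C1QA and -0.65 to 2.23 for C1QB. Each group sat at 1 fixed position on the slides, so position and time point cannot be told apart.

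Did the increase last? At day 5 C1QA was 1.62 higher than before irradiation (SE 0.40, 95% interval 0.68 to 2.55, adjusted p = 0.30 from limma). The pairs ranged from 0.36 to 3.14, 5 of 5 above 0, as for 7.24% of tested probes. Replicates 2 and 5 gave 3.14 and 2.54, and the others gave 0.36 to 1.12. C1QB was 1.39 higher (SE 0.47, interval 0.30 to 2.48, adjusted p = 0.369), in 4 of 5 pairs. Neither met the call rule. The rule was met by 0 of 19961 probes at day 5 (0%), while 11.2% of probes had an unadjusted p-value under 0.05, which both chains had (0.00419 for C1QA and 0.0192 for C1QB from limma). All day 5 arrays lay above all pre-irradiation arrays for C1QA, as for 0.326% of tested probes. With normexp background correction the difference of C1QA was 0.76 and that of C1QB 1.15. This comparison shares its pre-irradiation arrays with the one that chose the genes.

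At day 30 C1QA was 0.43 higher than before irradiation (SE 0.27, interval -0.18 to 1.04, adjusted p = 0.433 from limma). C1QB was 0.29 higher (SE 0.32, interval -0.43 to 1.01, adjusted p = 0.664). Both were higher in 4 of 5 pairs and lower in replicate 3, by -0.77 for C1QA and -1.30 for C1QB. Without replicate 3 the differences were 0.73 and 0.69, and without replicate 4 they were 0.27 and 0.14. Replicate 3 also had the highest pre-irradiation level of both chains. Both groups of arrays took part in the comparisons that chose the genes, so these p-values are no independent test. The intervals include both 0 and differences of 1.04 for C1QA and 1.01 for C1QB. The rule was again met by 0 probes (0%), with an unadjusted p-value under 0.05 for 17.5% of them. This count depended on the processing: it was 952 with normexp background correction, 694 over probes well above background on all arrays, 334 in the deposited table and 121 with all arrays in one fit.

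**Figure D2:**
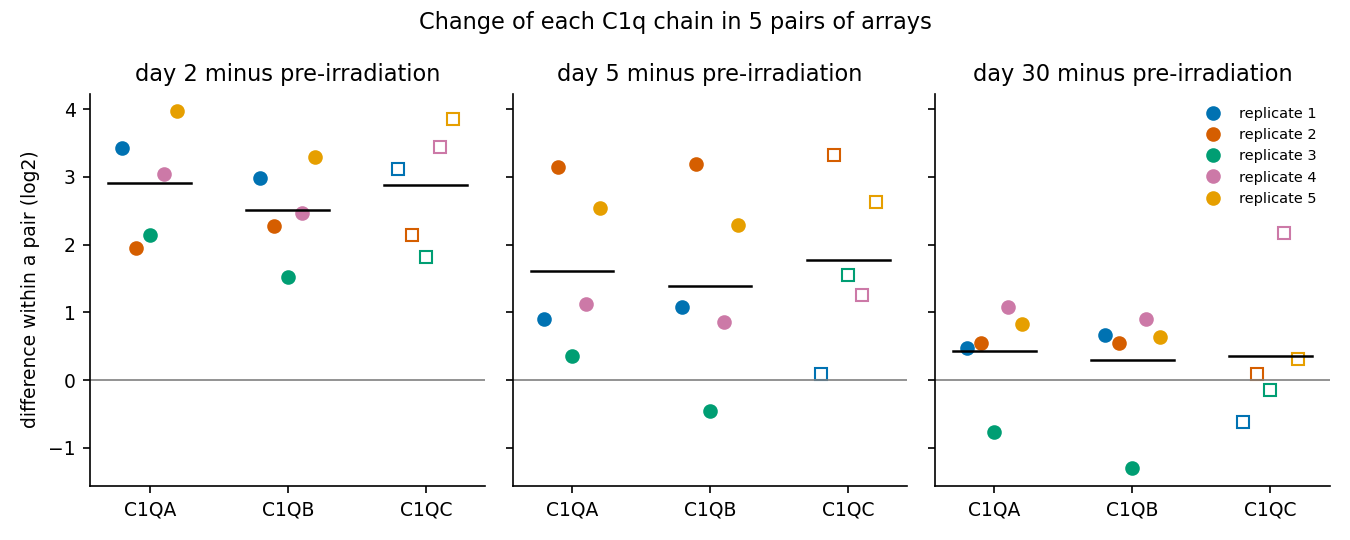
Change of each chain from pre-irradiation within the 5 pairs of arrays with the same replicate number, on the log2 scale (vertical axis), at day 2, day 5 and day 30 (panels). Points are pairs coloured by replicate, black lines are the mean of 5 pairs, and open squares mark C1QC, whose pre-irradiation arrays were all not well above background. At day 2 the lowest pair of C1QA and C1QB is 1.52, at day 5 replicates 2 and 5 stand above the others, and at day 30 the pairs of C1QA and C1QB lie between -1.30 and 1.08.

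From day 2 to day 5, C1QA differed by -1.29 (SE 0.49) and C1QB by -1.12 (SE 0.41), with an adjusted p of 0.972 from limma for both. The day 2 arrays took part in both comparisons that chose the genes, so this p is no independent test. Both were lower at day 5 in 4 of 5 pairs and higher in replicate 2, by 1.19 for C1QA and 0.91 for C1QB. From day 5 to day 30, a comparison that shares its day 30 arrays with that of day 30 and day 2, C1QA differed by -1.18 (SE 0.35, interval -2.0 to -0.37) and C1QB by -1.10 (SE 0.37, interval -1.94 to -0.26). The adjusted p was 0.561 from limma for both. C1QA was lower at day 30 in 5 of 5 pairs, as for 5.88% of tested probes, with a difference of only -0.035 in replicate 4, and C1QB in 4 of 5, with 0.033 in replicate 4. With normexp background correction the differences from day 5 to day 30 were -0.42 for C1QA and -0.88 for C1QB, and those from day 2 to day 5 were -0.81 and -0.62, while without replicate 2 C1QB differed by -0.72 from day 5 to day 30. The call rule was met by 0 probes between day 5 and day 2 and by 0 between day 30 and day 5 (0% each), with an unadjusted p-value under 0.05 for 3.56% and 8.48% of the probes.

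From day 2 to day 30, C1QA differed by -2.48 (SE 0.28) and C1QB by -2.22 (SE 0.22), and both were lower at day 30 in 5 of 5 pairs, as for 6.70% of tested probes. For C1QB all day 30 arrays lay below all day 2 arrays, as for 0.892% of tested probes. For C1QA, 4 of 5 did. C1QA and C1QB were the 2 probes called lower in that comparison, of 10 called in all (0.0501% of the probes tested, and 0.0100% for the lower ones), while 12.8% had an unadjusted p-value under 0.05. This comparison also took part in choosing them. Leaving out replicate 1, 3, 4 or 5 ended both calls, with differences from -2.61 to -2.31 for C1QA. With normexp background correction the differences were -1.24 and -1.50, and neither met the rule.

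How closely did the chains move together? Over the 20 arrays the levels of C1QA and C1QB had a Pearson correlation of 0.985 (Spearman 0.967). The recorded values of C1QC had 0.928 with C1QA and 0.901 with C1QB, but 15 of its 20 values were not well above background and 7 were surrogates, so these rest largely on values at the floor. The points are 4 time points of the same 5 replicate numbers, and all probes of an array share its RNA and scaling. With the group means removed, so that only differences among replicates of a time point remain, the correlation was 0.956 for C1QA with C1QB, and 0.766 and 0.697 for these with C1QC. The change of C1QA from pre-irradiation to day 2 less that of C1QB was 0.40 ± 0.42 (SD of 5 pairs). It ranged from -0.33 to 0.68, was above 0 in 4 of 5 pairs, and was not tested. With normexp background correction and its offset of 50 the order was reversed (1.57 and 1.77).

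Of 13569 other named genes, 0 had a correlation over 0.9 with C1QA or with C1QB. Both chains were chosen for a large difference at day 2, which by itself favours a high correlation between them over all arrays. Their place against the other genes is therefore a description only. The correlation with group means removed was not ranked against other genes. The highest were 0.827 for BBC3 with C1QA and 0.813 for ARHGAP21 with C1QB, and 99% of genes were below 0.603 and 0.571. The 10 genes most like C1QA and the 10 most like C1QB had 9 in common: BBC3, ARHGAP21, STX1A, TUBA8, RHOC, GLOD5, HIST1H2BL, HIST1H2BB and HIST1H2BJ. HIST2H2BF (C1QA) and CLPSL2 (C1QB) completed them. BBC3 codes for PUMA, a p53-induced promoter of apoptosis, and the HIST genes code for H2B histones. RHOC codes for a small GTPase and ARHGAP21 for a GTPase-activating protein, while STX1A codes for a syntaxin of vesicle fusion and TUBA8 for an alpha-tubulin.

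With the group means removed, the correlation with C1QA was 0.53 for BBC3, 0.57 for STX1A, 0.24 for GLOD5 and 0.75 for ARHGAP21. BBC3 was 0.98 higher at day 2 than before irradiation, TUBA8 1.65 higher and ARHGAP21 1.09 higher, each in 5 of 5 pairs. None of the 11 genes met the call rule at day 2, which 0.0601% of all tested probes met. They were picked for following the chains, so these values are a description. The set was not stable: with normexp background correction 0 of the 10 genes most like C1QA were the same, and 5 of the 10 for C1QB, while C1QA and C1QB then had a correlation of 0.857.

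**Figure D3:**
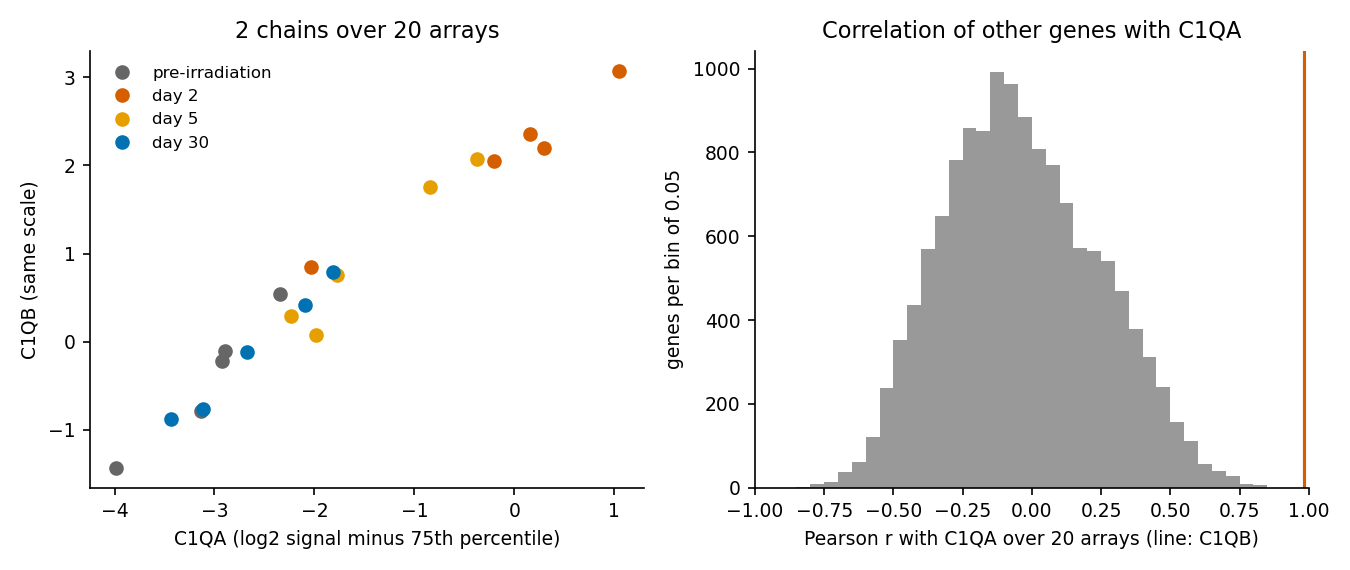
Left, level of C1QB (vertical axis) against C1QA (horizontal axis) on 20 arrays, both as log2 signal minus the 75th percentile, coloured by time point. Right, number of genes (vertical axis) by Pearson correlation with C1QA over the arrays (horizontal axis), with an orange line for C1QB at 0.985. The highest of the 13569 other genes was at 0.827. C1QA and C1QB were chosen for their day 2 difference, which favours a high correlation, so the place of the line is a description.

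The proteins that act directly with C1q were measured next, from a list of 22 genes of the C1 complex, of the classical and lectin pathways and of the later components. Of these, 13 had a tested probe, and 0 of 13 met the call rule at day 2, day 5 or day 30. Of all tested probes, 0.0601%, 0% and 0% met it on these days, so nothing about the list is read from that count. At day 2, 10 of 13 had a fitted difference above 0, against 44.9% of all tested probes, with a median of 0.065 beside -0.038 over all probes. C1S, the protease of the C1 complex that cleaves C4 and C2, was 1.38 higher at day 2 (SE 0.39, unadjusted p = 0.00788, adjusted p = 0.213 from limma) in 5 of 5 pairs. C1R, the protease that activates it, differed by -0.068 (SE 0.20). SERPING1, the inhibitor of both proteases, differed by 0.057 (SE 0.22).

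Of the later steps, C2 and C4B differed by 0.063 and 0.064 at day 2, and C3, the convergence point of all complement pathways, by 0.57 (unadjusted p = 0.0648 from limma). C5, which starts the membrane attack complex, was 1.05 higher at day 5 (unadjusted p = 0.0399, adjusted p = 0.424 from limma). Among the ficolins, the recognition proteins of the lectin pathway, FCN1 differed by 0.51 and FCN3 by 0.065 at day 2, and FCN2 by -1.13 (adjusted p = 0.222 from limma), which became 0.25 with normexp background correction. Of the untested members on the array, the probes of C8A, C8B, C9, MBL2 and MASP1 were well above background on 0 of 20 arrays. Other complement genes known for expression in liver were detected, among them C4BPA on 17 arrays, C4B on 16, C3 on 14 and C5 on 13.

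A second list held 16 receptors and binding partners of C1q, of which 13 were tested and 0 met the call rule at any of the 3 days. Of all tested probes, 0.0601% met it at day 2 and 0% at day 5 and day 30, so nothing is read from this count either. Their median difference at day 2 was -0.051, which became 0.17 with normexp background correction and 0.31 in the deposited table. With normexp the median of all tested probes was 0.17 too. The deposited table holds fewer probes, so its median may rest on fewer genes of the list. CD93, a surface protein of myeloid and endothelial cells once described as a C1q receptor, was 1.10 higher at day 2 (SE 0.28, unadjusted p = 0.00426, adjusted p = 0.192 from limma) in 5 of 5 pairs, and 0.84 higher at day 30 in 5 of 5 pairs. PTX3, a long pentraxin that binds C1q, was 0.82 higher at day 2 (SE 0.23, adjusted p = 0.208) and SCARF1, a scavenger receptor for C1q on dying cells, 0.63 higher (SE 0.21, adjusted p = 0.254), both in 5 of 5 pairs. CALR, which codes for calreticulin and had the brightest probe of the list, differed by -0.17 (SE 0.15), and C1QBP, the gC1q receptor, by -0.051 (SE 0.15). LRP1, the endocytic partner of calreticulin, differed by 0.52 (SE 0.28).

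**Figure D4:**
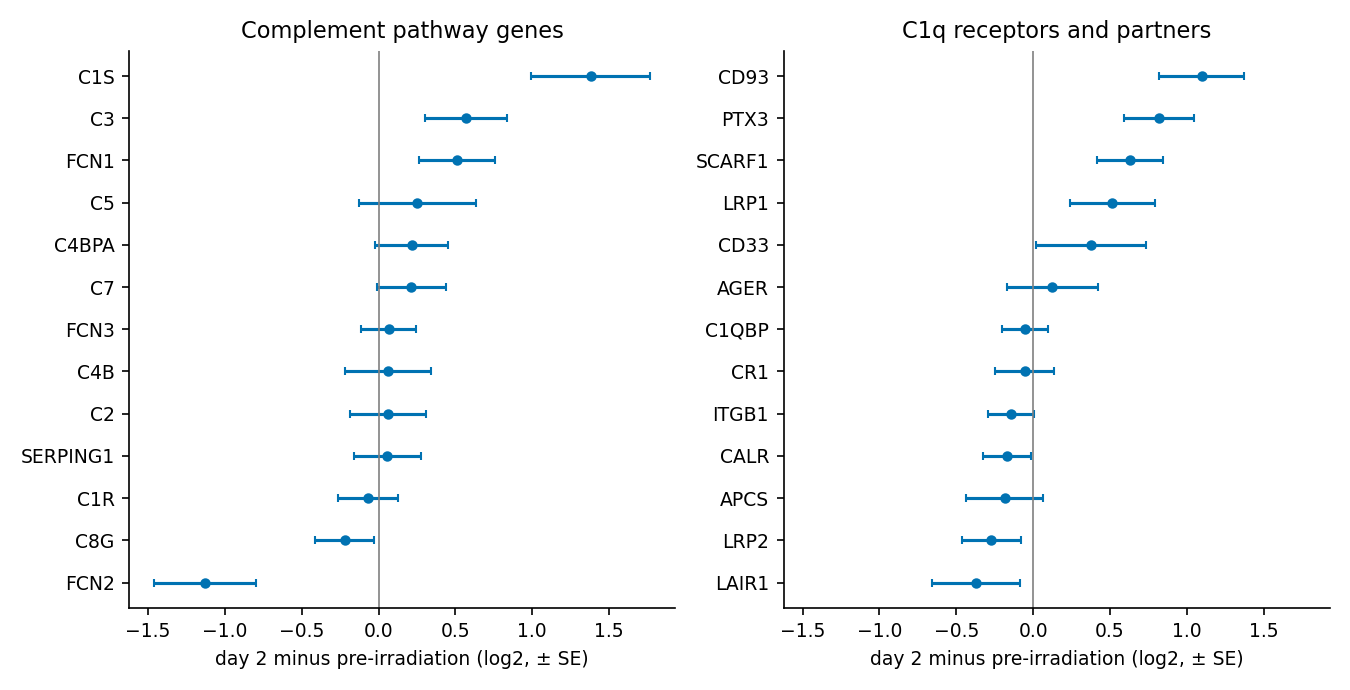
Difference between day 2 and pre-irradiation on the log2 scale (horizontal axis, ± SE of the paired limma fit, n = 5 pairs) for the 13 tested complement pathway genes (left) and the 13 tested C1q receptors and partners (right). C1S at 1.38 and CD93 at 1.10 lie farthest to the right, and FCN2 at -1.13 farthest to the left. None met the call rule, which 0.0601% of all tested probes met.

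Other genes whose proteins carry a C1q-like domain were mostly not measurable: of 26 listed, 9 were tested. Of these, 4 of 9 had a difference above 0 at day 2, against 44.9% of all tested probes. Their median was -0.099, which became 0.25 with normexp background correction, beside 0.17 over all tested probes. In the deposited table, which may hold fewer of these genes, it was 0.43. EMILIN1 and EMILIN2, matrix proteins with the brightest probes of the list, differed by -0.21 and 0.39.

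Markers of blood cell types and of tissue macrophages were counted in the same way. Which cells the RNA of these genes came from was not tested. Of 23 listed symbols of tissue macrophages, 13 were tested, 12 of 13 had a difference above 0 at day 2 and 0 met the call rule, with a median of 0.83. Of all tested probes, 44.9% had a difference above 0 and 0.0601% met the rule at day 2. These shares apply to the day 2 counts of the lists below too. SEPP1, coding for selenoprotein P, was 1.07 higher (SE 0.15, unadjusted p = 0.000118, adjusted p = 0.131 from limma). SLC40A1, the iron exporter ferroportin, was 1.16 higher (SE 0.20). SEPP1 and SLC40A1 had the lowest p-values of the list and were named after these were seen. CD163, the haemoglobin scavenger receptor with the brightest probe of the list, was 0.83 higher (SE 0.23). A brighter probe does not show a more abundant transcript. The summed level of the list relative to the 75th percentile was 20.1 to 38.6 before irradiation, 35.5 to 51.3 at day 2, 18.3 to 49.6 at day 5 and 28.1 to 51.5 at day 30. The groups overlapped at every day. The probes of MERTK, TREM2 and SLCO2B1 were well above background on 0 arrays, and those of MARCO, MRC1 and CD5L on 1.

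The CD14 monocyte list had a median difference of 1.0 at day 2, 0.62 at day 5 and 0.87 at day 30, with 8 of 9 tested genes above 0 at day 2. Its brightest probe was that of CSF3R, which the neutrophil list also holds and which was the brightest there too. The median of the CD14 list at day 2 and at day 5 was the value of CSF3R itself. At day 2 the genes ranged from -0.086 for CCR2 to 1.81 for S100A9, with CD14 at 0.58. The summed level of the CD14 list, to which CSF3R contributes, was 214 to 626 before irradiation and 439 to 1310 at day 2. The CD16 monocyte list, which includes RHOC, had a median of 0.59 (11 of 14 above 0) and the neutrophil list of 0.96 (12 of 12). At day 30 the neutrophil list had a median of 0.95 and the CD16 list of 0.48, and whether these differ from the chains was not tested. A list of 10 transcription factors of monocytes and macrophages had a median of 0.49 at day 2 and 0.46 at day 30.

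Platelet markers had the highest list median at day 2, 1.45 with 11 of 11 genes above 0, and a median of 0.43 at day 5 and -0.37 at day 30. PF4, with their brightest probe, was 1.47 higher at day 2 (SE 0.25). The summed level of platelet markers was 33.2 to 123 before irradiation and 125 to 455 at day 2. The interferon-stimulated list, whose brightest probe was that of MX2, had a median of 1.04 (20 of 20 above 0) with a summed level of 41.2 to 1664 at day 2. Its genes were higher in only 2 to 4 of 5 pairs each, the median level of the list was lower at day 2 in replicates 3 and 4, and without replicate 1 the median difference was 0.28. Dendritic cell markers had -0.0032 and erythroid genes 0.0032, which became 0.28 and -0.50 with normexp background correction. T and NK cell markers had -0.77 (0 of 16 above 0) and B cell markers -0.56 (0 of 8). Only KLRB1, which codes for the lectin-like receptor CD161, met the call rule in any list at day 2, where it differed by -1.67 (SE 0.21, adjusted p = 0.0965 from limma).

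Among replicates of the same time point, the median level of a list had a correlation with C1QA of 0.59 for the monocyte and macrophage factors, 0.31 for tissue macrophage markers, -0.040 for CD14 monocyte markers, -0.028 for neutrophil markers, -0.066 for platelet markers and -0.41 for CD16 monocyte markers, over 20 arrays with group means removed. With normexp background correction the list medians at day 2 were 0.54 for tissue macrophage, 0.49 for CD14 monocyte, 0.21 for CD16 monocyte, 0.51 for neutrophil, 0.89 for platelet and 0.48 for interferon-stimulated genes and 0.20 for the factors, and over probes well above background on all arrays that of tissue macrophage markers was 0.41. With normexp the median of all tested probes at day 2 was 0.17, in place of -0.038. The part of these cells in the change of the chains was not tested.

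**Figure D5:**
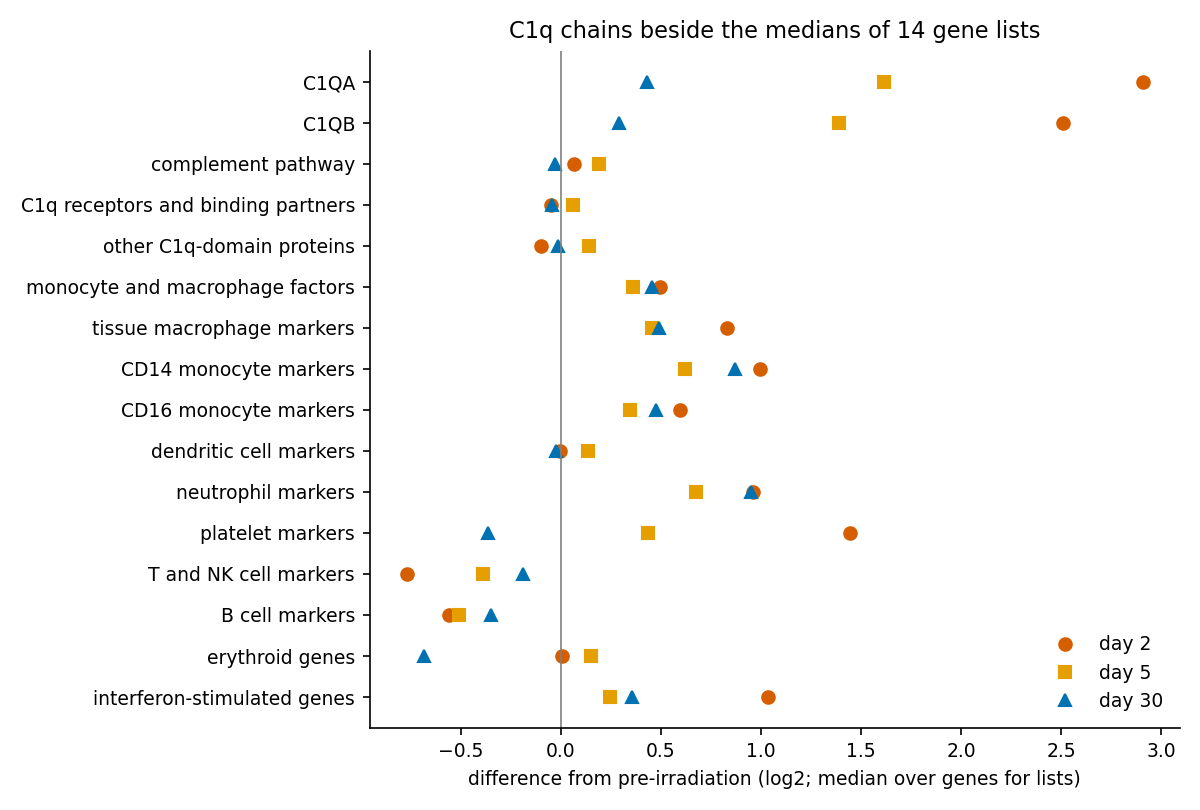
Difference from pre-irradiation on the log2 scale (horizontal axis) at day 2 (circles), day 5 (squares) and day 30 (triangles) for C1QA, C1QB and the medians of 14 gene lists (rows). Among the lists, platelet markers have the highest median at day 2 (1.45) and T and NK cell markers the lowest (-0.77), and C1QA and C1QB, chosen for their difference at day 2 (2.91 and 2.51), lie at 0.43 and 0.29 at day 30.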

How the data were processed

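Each array was scanned and extracted with Agilent Feature Extraction (12.0.2.2 per the file headers, 10.7 in the submitters' processing notes) on the hg19 design. The processed signal intensities deposited by the authors were background-subtracted and detrended but not normalized between arrays. The deposited table of log2 values (5885 rows, 1770 missing values) was used as an alternative: its values equalled the log2 signal plus 1 constant per array within 0.001, for 99.5% of them on the array with the lowest share, and it holds C1QA and C1QB.

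Control spots and spots with outlier flags were left out, spots of a probe were averaged as log2 values, and the array's 75th percentile over all non-control spots was subtracted. Probes well above background on at least 5 of 20 arrays and measured in at least 4 pairs were tested with limma 3.58.1 in R 4.3.3, per comparison on its own 10 arrays with the replicate number as a block, with Benjamini-Hochberg adjustment, and called at p under 0.005 and FDR under 10%. The study states that its class comparisons were paired by animal. Deviations from group means correlated by 0.28 on average between arrays of the same number and by -0.070 between arrays of different numbers. Labels do not tie replicate numbers to animals, so p-values measure the spread among these arrays. The number of arrays limits the precision.

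The chains and the 14 gene lists were chosen with earlier results of these data known. Named are the 3 chains, tested genes of the first 2 lists, the called members and the 3 brightest genes of the other lists as far as described, and the 10 genes with the highest correlation with C1QA and C1QB (measured on at least 18 arrays). SEPP1 and SLC40A1, the lowest p-values of the tissue macrophage list, and the list members with no or 1 array above background were named after their values were seen. A list gene is represented by its brightest tested probe. The sequence and position of the C1QA probe are not reported here.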

Additional observations from a re-analysis of the deposited data

Results flagged for a closer look

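Of 142 sets of 5 values that were examined for a sample far from the others, 8 (5.63%) held one, and chance gives about 1 in 20. For the chains, C1QC stood at -4.15 on the day 30 array of replicate 4, with the next array at -5.75 and all of them not well above background. The change of C1QB from pre-irradiation to day 30 was -1.30 in replicate 3, with the nearest other replicate at 0.55. Among summed list levels relative to the array's 75th percentile, C1q receptors and partners reached 179 on the day 2 array of replicate 2 (next 145), monocyte and macrophage factors were at 51.3 on the day 5 array of replicate 4 (next 114), and dendritic cell markers at 47.1 on the day 2 array of replicate 5 (next 32.2). Platelet markers were at 33.2 on the pre-irradiation array of replicate 3 (next 98.4), erythroid genes at 7515 on the day 30 array of replicate 3 (next 4551), and interferon-stimulated genes at 1664 on the day 2 array of replicate 1 (next 282). The changes from pre-irradiation also differed between day 2 and day 30, by -2.48 for C1QA and -2.22 for C1QB, a comparison that took part in choosing the genes.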

How the results depend on the processing

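C1QA and C1QB kept their direction in all 6 comparisons under every alternative run. From pre-irradiation to day 2 their differences of 2.91 and 2.51 (12 probes called) became 2.90 and 2.49 with quantile normalization (0 called) and 1.57 and 1.77 with normexp background correction (0 called). They stayed at 2.91 and 2.51 but lost the call with no filter on dim probes (0 called), with no replicate block (0 called), with an FDR under 5% (0 called) and with slide as the only block, an alternative added after seeing the data (1 called). The count was 190 over probes well above background on all 20 arrays, 327 in the deposited table, 343 with all arrays in one fit and 153 with slide and replicate block in that fit. Leaving out 1 replicate gave 2.64 to 3.15 for C1QA, 2.31 to 2.75 for C1QB and 0 to 588 calls, with 588 without replicate 2.

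From day 2 to day 30, -2.48 and -2.22 (10 called) became -1.24 and -1.50 with normexp (6 called), and the calls of both were lost at -2.48 and -2.22 with no dim filter (0), no replicate block (4), slide as the only block (0) and an FDR under 5% (0). The count was 26 over probes well above background on all arrays, 57 in the deposited table, 164 in one fit and 94 with slide and replicate block. Leaving out 1 replicate gave -2.75 to -2.31 for C1QA, -2.38 to -2.07 for C1QB and 0 to 66 calls, with 66 without replicate 2. Without a replicate, 0 to 2 probes were called from day 5 to day 30. From pre-irradiation to day 30 the counts were 952 with normexp, 694 over probes well above background on all arrays, 334 in the deposited table, 121 in one fit and 7 with slide and replicate block, and to day 5 the last of these fits called 2. FCN2 at day 2 became 0.25 with normexp, and C1QC from day 5 to day 30 0.093. Without a replicate C1QC from pre-irradiation to day 30 ranged from -0.093 (without replicate 4) to 0.61. Its arrays in both of these groups were not well above background, so these values measure no change. The correlation of C1QA and C1QB was 0.857 with normexp, which also moved the median of all probes at day 2 to 0.17. The causes were not tested. The faint C1QC signal limits that chain to a bound that is not strict.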
